A study of Mus musculus with 6 samples.

Results

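The circadian clock genes described here are Arntl, Clock, Per1, Per2, Per3, Cry1, Cry2, Nr1d1, Nr1d2 and Dbp, chosen by gene symbol as the core of the clock loop and its outputs. All 10 had a row among the 18543 genes of the deposited count table, and all 10 passed the low-count filter that left 14052 genes to test. They were measured in group 2 innate lymphoid cells (ILC2s), lymphocytes of mucosal tissue that respond to the epithelial alarmin IL-33 and carry no rearranged antigen receptor. The cells had been sorted from the lungs of 8-week-old C57BL/6 mice on day 4, after 3 consecutive days of intranasal IL-33 at 0.5 µg, a treatment that both groups received. There were 3 libraries labelled Atg5-/- (KO 1, KO 2 and KO 3) and 3 labelled wild-type (WT 1, WT 2 and WT 3), each prepared from 10 ng of RNA. The labels do not say how Atg5 was removed or in which cells, whether each library came from its own mouse, or at what time of day the lungs were taken.

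The mammalian clock is a transcriptional feedback loop that runs in nearly every cell. CLOCK and BMAL1 (the product of Arntl) bind E-boxes and drive Per, Cry, Nr1d1, Nr1d2 and Dbp; PER and CRY proteins return to the nucleus and inhibit them. REV-ERBα and REV-ERBβ, the products of Nr1d1 and Nr1d2, repress Arntl through ROR response elements (ROREs), and DBP activates genes with D-boxes, among them Per genes. In tissues with a running clock, Arntl RNA therefore peaks in antiphase to Dbp and Nr1d1 RNA, while Clock RNA cycles weakly or not at all.

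The elements through which this loop runs were looked for in RefSeq promoter windows on GRCm38.p6, which is the mm10 build. Windows covered 250 bases before the annotated start and 50 after it, and 13 windows were found for 9 of the 10 genes, all but Per2. Motifs were searched on both strands, and no 2 matches in these windows overlapped. The E-box CACGTG occurred in 7.15% of all 32851 windows, its variant CACGTT in 4.68%, the RORE core TAGGTCA in 2.61%, the D-box forms TTATGTAA and TTACGTAA in 0.938% and 0.119%, and the cAMP response element TGACGTCA in 1.79%. The 5 stretches shown carry the elements found in the genes that stand for each arm. Each is printed 5′ to 3′ on the strand of its gene, without exonic bases apart from the Arntl site, with motif matches in capitals (AACGTG is CACGTT read on the other strand).
Arntl, 30 transcribed bases, chr7:113207531-113207560, plus strand: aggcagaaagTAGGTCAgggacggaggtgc
Per1, chr11:69098699-69098947, plus strand: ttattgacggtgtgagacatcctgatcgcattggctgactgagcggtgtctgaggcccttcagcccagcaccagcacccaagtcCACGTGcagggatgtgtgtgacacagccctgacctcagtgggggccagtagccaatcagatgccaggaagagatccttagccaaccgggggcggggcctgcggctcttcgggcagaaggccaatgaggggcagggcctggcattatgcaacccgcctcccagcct
Per3, chr4:151044666-151044915, minus strand: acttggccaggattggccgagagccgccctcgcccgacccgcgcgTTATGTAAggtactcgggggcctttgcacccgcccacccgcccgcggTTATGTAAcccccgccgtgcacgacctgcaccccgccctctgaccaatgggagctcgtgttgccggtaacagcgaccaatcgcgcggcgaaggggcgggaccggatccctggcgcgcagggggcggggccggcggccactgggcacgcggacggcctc
Cry1, chr10:85185065-85185304, minus strand: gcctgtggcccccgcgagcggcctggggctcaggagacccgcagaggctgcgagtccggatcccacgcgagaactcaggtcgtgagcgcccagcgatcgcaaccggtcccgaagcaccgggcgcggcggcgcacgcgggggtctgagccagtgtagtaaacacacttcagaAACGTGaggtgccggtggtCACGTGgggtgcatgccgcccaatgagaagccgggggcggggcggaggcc
Nr1d1, chr11:98775378-98775627, minus strand: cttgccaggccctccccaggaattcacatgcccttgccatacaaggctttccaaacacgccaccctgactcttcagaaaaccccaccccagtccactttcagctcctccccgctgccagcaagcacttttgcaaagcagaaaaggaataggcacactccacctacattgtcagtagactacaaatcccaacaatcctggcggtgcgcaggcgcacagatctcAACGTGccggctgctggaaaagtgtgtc

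Positions are counted from the RefSeq start, the base before it being -1. The Per1 E-box began at -166 and the Cry1 E-box at -60, with CACGTT at -79 in Cry1, at -28 in Nr1d1 and at -166 in Cry2. Per3 held the D-box TTATGTAA at -205 and again at -158. Arntl held the RORE core at position 31 from the later of its annotated starts, the start itself being 1. The windows of Clock, Nr1d2 and Dbp held none of these letters, which says nothing of sites elsewhere in those genes. A match is a description of the sequence, not a measured binding site.

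Library totals ran from 28827545 to 33662979 estimated counts. Atg5 itself, the targeted gene, was at 23.0, 25.6 and 52.2 CPM (counts scaled to library size) in the libraries labelled KO 1 to KO 3, and at 66.3, 71.8 and 21.8 CPM in those labelled WT 1 to WT 3. The log2 difference was -0.67 (SE 0.50, adjusted p = 0.478 by edgeR), and without WT 3 Atg5 fell by 1.03 (SE 0.33, adjusted p = 0.0489). The library labelled WT 3 was lowest of the 6, against its label, KO 3 was the highest of those labelled knockout, and the whole profile of WT 3 correlated with those labelled KO 1 and KO 2 (r = 0.991 and 0.990 across genes) more closely than with those labelled WT 1 and WT 2 (r = 0.946 and 0.948). Every direction below is therefore one between labels, and the fitted difference of each of the 10 clock genes is given with and without the library labelled WT 3. All 12 ILC2 markers were detected in every library, but their levels also differed between the same libraries as the clock genes. Their sum was 11357 to 15283 CPM under the knockout label and 17311, 18124 and 15319 CPM in WT 1, WT 2 and WT 3. Id2 was at 946 to 1033 CPM against 2001, 2138 and 932 CPM, Gata3 at 900.1 to 927 CPM against 1559, 1533 and 964 CPM, and Klrg1 at 121 to 174 CPM against 526, 556 and 154 CPM. Not all 12 markers ran this way. Il13 ran the other way, at 286 to 367 CPM against 99.0, 117 and 355 CPM. Il7r overlapped, at 97.9 to 106 CPM against 95.5, 93.1 and 103 CPM. Il5, the largest part of the sum, was at 5352 to 9194 CPM against 8242, 9003 and 9148 CPM. Markers of other cells were uneven. Col1a1 reached 0.542 CPM and S100a9 0.312 CPM, while Cd3g, Cd79b, Epcam, Kit and Pecam1 were each at 6.38 CPM or more in every library. The endothelium and stroma list summed to 92.0 to 131 CPM under the knockout label and to 10.4, 8.67 and 93.6 CPM in those labelled WT 1, WT 2 and WT 3. Nearly all of that was Pecam1, with Vwf at up to 0.277 CPM. The granulocyte and mast cell list, mostly Kit, summed to 175 to 190 CPM against 76.0, 65.4 and 216 CPM, and the epithelium list, mostly Epcam apart from 15.0 CPM of Scgb1a1 in KO 2, to 9.35 to 29.1 CPM against 58.2, 52.3 and 14.9 CPM. The T cell list, mostly Cd3g in every library but KO 3, summed to 25.2 to 26.6 CPM against 41.9, 43.4 and 23.7 CPM. The macrophage and monocyte list summed to 2.39 to 5.89 CPM against 11.8, 10.6 and 4.11 CPM. B cell (mostly Cd79b, 6.67 to 14.3 against 13.5 to 19.5 CPM), red cell (7.75 to 8.45 against 5.83 to 10.9 CPM) and NK and ILC1 lists (at most 1.05 against at most 2.16 CPM) overlapped between groups. The part of these cells, and of the ILC2 markers' own difference, in the clock gene values was not tested.

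The only comparison in the design is knockout against wild type. Dbp, the PER genes and the REV-ERB genes, 6 in all, had lower estimates under the knockout label, while the activators Arntl and Clock and the CRY genes had higher ones. With all 6 libraries 0 of the 10 passed an adjusted p of 0.05 in edgeR's quasi-likelihood test, as did 0.0% of all 14052 genes. At an unadjusted p under 0.05 there were 2 clock genes, Dbp and Per3, against 14.4% of all genes. On the same 6 libraries DESeq2 passed the same 2, both lower, where it passed 2.3% of all genes and 2.19% as lower. Limma-voom and limma-trend passed 0. The median of the 10 log2 differences was -0.36, against 0.02 over all genes tested. In 3 of the 10, Per3, Nr1d2 and Dbp, every library labelled knockout lay below every one labelled wild type. Such separation was seen in 18.5% of all genes in either direction and in 9.22% on the lower side.

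Without the library labelled WT 3, 4 of the 10 passed: Dbp, Per3 and Nr1d2 fell and Cry1 rose. In that fit 33.9% of all 14743 genes passed, 17.7% higher and 16.1% lower, so that 4 of 10 is close to the share over all genes. The median of the 10 was then -0.46, against 0.02 over all genes. Without both libraries numbered 3, a comparison of 2 libraries with 2, Nr1d1 fell as well, making 1 higher and 4 lower, where 45.4% of all genes passed, 22.7% higher and 22.7% lower. Single genes said below to fall or rise in either fit are to be read beside these shares. Leaving out WT 3 alone, 7 of the 10 genes separated by label, against 61.6% of all genes. In 8 of the 10 genes, all but Clock and Cry2, the library labelled WT 3 lay nearer to the mean of those labelled knockout than to that of WT 1 and WT 2, as it did in 76.3% of all genes. In bulk RNA, fewer cells that express a gene and less of its RNA per cell cannot be told apart.

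**Figure D1:**
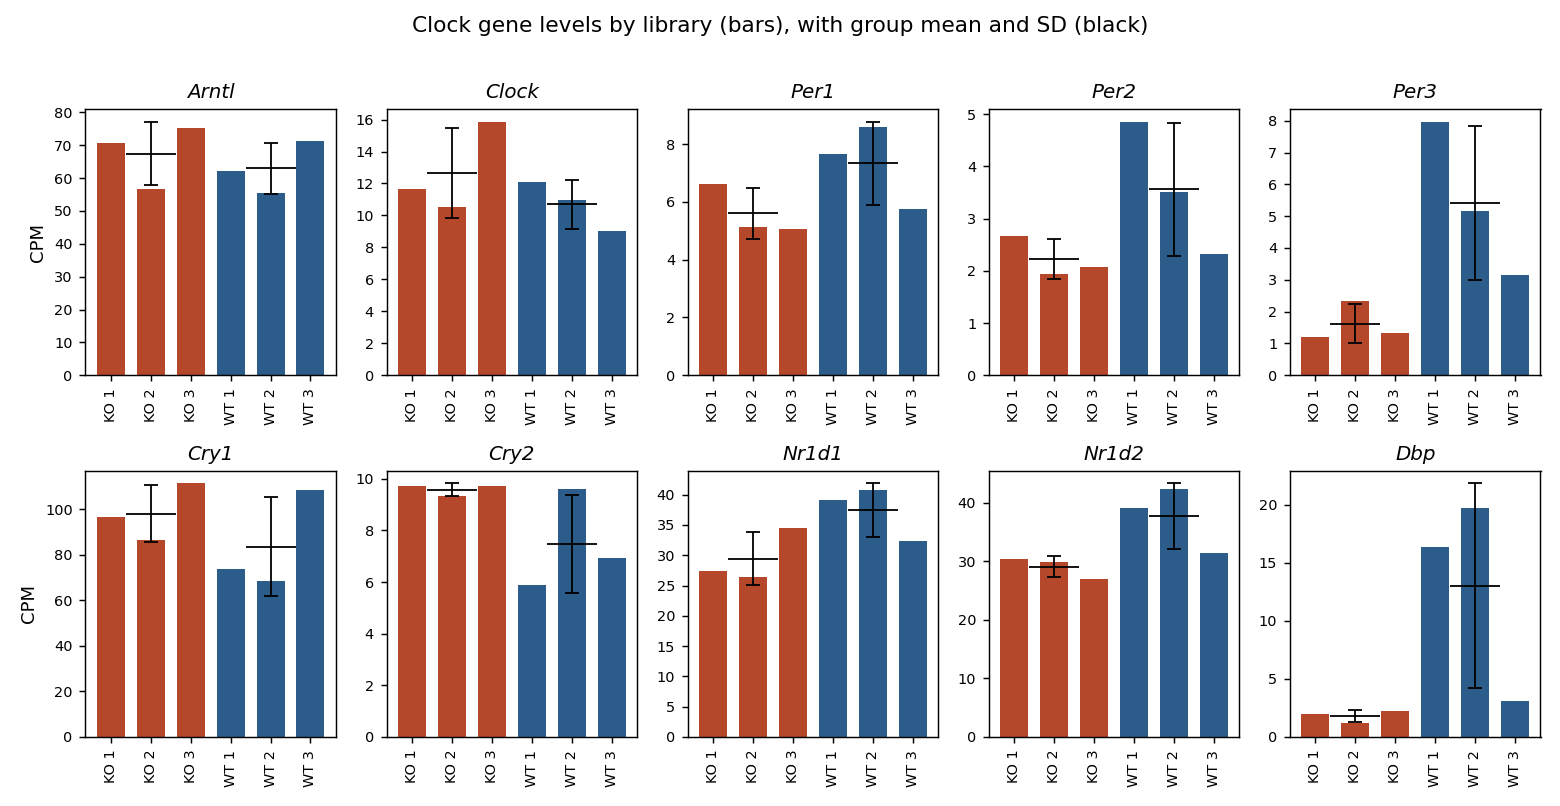
Level of each clock gene in CPM (y axis, from 0) in each library (x axis), with the libraries labelled knockout in red and those labelled wild type in blue. Black marks are the group mean and SD (n = 3 each). Dbp is at most 2.23 CPM under the knockout label, against 16.3, 19.7 and 3.08 CPM in WT 1, WT 2 and WT 3.

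Of the activators, Arntl (chr7:113207465-113314126 on mm10, plus strand, 22 exon blocks) had nearly the same level under both labels. The libraries labelled knockout held 70.6 CPM (KO 1), 56.6 CPM (KO 2) and 75.2 CPM (KO 3), against 62.1, 55.6 and 71.1 CPM in those labelled WT 1, WT 2 and WT 3. The groups overlapped throughout, with KO 2, WT 1 and WT 2 lowest. The log2 difference was 0.10 (SE 0.16, adjusted p = 0.746), and 0.20 without WT 3 (SE 0.15, adjusted p = 0.329). Clock (chr5:76209868-76304792, minus strand), which encodes the partner of BMAL1, was at 11.6, 10.5 and 15.9 CPM under the knockout label and at 12.1, 11.0 and 9.05 CPM in those labelled wild type. Only KO 3 stood above the others. Its log2 difference of 0.24 (SE 0.24, adjusted p = 0.584) was 0.14 without WT 3 (SE 0.23, adjusted p = 0.694) and -0.05 without both libraries numbered 3 (SE 0.20, adjusted p = 0.864).

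The PER genes, which encode the inhibitors that the loop makes against itself, were all lower in the libraries labelled knockout than in WT 1 and WT 2, by different amounts. Per1 (chr11:69095217-69109960, plus strand) was at 6.62, 5.12 and 5.07 CPM in KO 1, KO 2 and KO 3, against 7.67, 8.57 and 5.77 CPM in WT 1, WT 2 and WT 3. WT 3 lay inside the knockout range. Neither fit called Per1 (log2 difference -0.39, SE 0.27, adjusted p = 0.443, and -0.53 without WT 3, SE 0.25, adjusted p = 0.143). Per2 (chr1:91415982-91459324, minus strand) was at 2.67, 1.93 and 2.07 CPM under the knockout label and at 4.85, 3.50 and 2.32 CPM in those labelled wild type. WT 3 again lay inside the knockout range, and the estimates of -0.68 (SE 0.38, adjusted p = 0.381) and, without WT 3, -0.90 (SE 0.34, adjusted p = 0.0787) did not pass.

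Per3 (chr4:151003652-151044665, minus strand, 23 exon blocks), in whose window the D-boxes shown above lie, had the largest PER difference. The libraries labelled knockout held 1.21 CPM (KO 1), 2.32 CPM (KO 2) and 1.34 CPM (KO 3), from 35, 78 and 42 counts. In those labelled WT 1, WT 2 and WT 3 it was at 7.97, 5.17 and 3.15 CPM, from 243, 158 and 95 counts. The groups did not overlap, and WT 3 lay between KO 2 and WT 2. Means were 1.62 ± 0.606 CPM under the knockout label and 5.43 ± 2.42 CPM in those labelled wild type (SD, n = 3 each). The log2 difference of -1.74 (SE 0.46, 3.33-fold lower) had an adjusted p of 0.342 by edgeR and of 0.0313 by DESeq2 on the same libraries. Without WT 3, Per3 fell by 2.0 log2 units (SE 0.40, adjusted p = 0.00796). Per3 lies within the span of Camta1 on the same strand, but no exons are shared, and Camta1 stood at 7.95 to 12.4 CPM against 7.54 to 9.03 CPM.

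The CRY genes, whose products bind CLOCK and BMAL1 directly, did not follow the PER genes. Cry1 (chr10:85131700-85185064, minus strand) was at 96.7, 86.5 and 111 CPM in KO 1, KO 2 and KO 3, against 73.7, 68.7 and 109 CPM in WT 1, WT 2 and WT 3. WT 3 lay within the knockout range and the other libraries labelled wild type lay below it. Its log2 difference was 0.23 with all 6 libraries (SE 0.21, adjusted p = 0.548), and without WT 3 it rose by 0.47 (SE 0.13, adjusted p = 0.0277). Cry2 (chr2:92403646-92434043, minus strand) was at 9.73, 9.31 and 9.70 CPM under the knockout label and at 5.90, 9.59 and 6.93 CPM in those labelled wild type. KO 1 to KO 3 were nearly equal while the libraries labelled wild type spread, and WT 2 reached the knockout level. Neither fit called it (0.36, SE 0.25, adjusted p = 0.450, and 0.31 without WT 3, SE 0.26, adjusted p = 0.409). Cry2 shares 295 exonic bases with the antisense gene D930015M05Rik, which had at most 0.0346 CPM under the knockout label and 0.133 to 0.687 CPM in those labelled wild type. The deposited Cry2 counts were fractional in 4 of the 6 libraries.

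The REV-ERB genes stood lower under the knockout label by similar amounts. Nr1d1 (chr11:98767932-98775333, minus strand) was at 27.4, 26.4 and 34.4 CPM in KO 1, KO 2 and KO 3, against 39.0, 40.8 and 32.4 CPM in WT 1, WT 2 and WT 3. KO 3 lay above WT 3, so the groups overlapped. The estimates were -0.35 with all 6 libraries (SE 0.17, adjusted p = 0.360) and -0.43 without WT 3 (SE 0.15, adjusted p = 0.0659). Without both libraries numbered 3, where 45.4% of all genes passed, Nr1d1 fell by 0.56 (SE 0.12, adjusted p = 0.00392). Nr1d1 shares 263 exonic bases with Thra on the opposite strand, and the deposited Nr1d1 counts were fractional in all 6 libraries. Whether strand was used in the counting is not given in the sources, and how shared reads were divided was not tested. Thra was at 3.13 to 4.70 CPM under the knockout label, against 5.21 to 6.25 CPM in those labelled wild type, and did not pass (log2 difference -0.46, SE 0.28, adjusted p = 0.398, and -0.50 without WT 3, SE 0.29, adjusted p = 0.241).

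Nr1d2 (chr14:18204054-18239127, minus strand) was at 30.3, 29.8 and 27.0 CPM under the knockout label and at 39.1, 42.4 and 31.5 CPM in those labelled wild type. The groups did not overlap, although WT 3 lay just above KO 1. Nr1d2 had a log2 difference of -0.37 (SE 0.16, adjusted p = 0.346) and fell by 0.48 without WT 3 (SE 0.12, adjusted p = 0.0230). Its counts were whole numbers in all 6 libraries and no other gene of the table overlaps it. Per length, Nr1d1 exceeded Nr1d2 in every library, by 1.56-fold to 2.24-fold under the knockout label and by 1.69-fold to 1.81-fold under the wild-type label.

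Dbp (chr7:45705088-45710203, plus strand, 4 exon blocks), which encodes a PAR-domain bZIP activator and is among the most strongly cycling transcripts of liver and other mouse tissues, differed most. The libraries labelled knockout held 1.97 CPM (KO 1), 1.19 CPM (KO 2) and 2.23 CPM (KO 3), from 57, 40 and 70 counts. In those labelled WT 1, WT 2 and WT 3 it was at 16.3, 19.7 and 3.08 CPM, from 498, 602 and 93 counts. WT 1 and WT 2 stood far above the other 4 libraries, and WT 3, though above all those labelled knockout, lay near them. Counting error alone gave 95% intervals (exact Poisson) of 1.74 to 2.82 CPM for KO 3 and of 2.49 to 3.78 CPM for WT 3, which overlap. Means were 1.80 ± 0.543 CPM under the knockout label and 13.0 ± 8.78 CPM in those labelled wild type (SD, n = 3 each). The log2 difference was -2.86 (SE 0.68, 7.24-fold lower), with an adjusted p of 0.342 by edgeR and of 0.00276 by DESeq2. Of all genes, 33.9% passed without WT 3 and 45.4% without both libraries numbered 3. Without WT 3, Dbp was 9.97-fold lower and fell by 3.32 log2 units (SE 0.31, adjusted p = 0.000352), and without both libraries numbered 3 it fell by 3.51 (SE 0.30, adjusted p = 1.05e-05). Over the 6 libraries its log2 range was 3.58, which 0.968% of tested genes reached. That of Per3 was 2.31, which 5.91% reached, and the other 8 clock genes ranged by 0.43 to 1.14. The 3′ end of Dbp shares 539 exonic bases with Sphk2 on the opposite strand, and the deposited Dbp counts were fractional in all 6 libraries, and how reads of the shared stretch were divided was not tested. Sphk2 was at 41.6 to 52.0 CPM under the knockout label and at 41.2 to 48.5 CPM in those labelled wild type (log2 difference 0.03, SE 0.15, adjusted p = 0.910, and -0.01 without WT 3, SE 0.14, adjusted p = 0.957).

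**Figure D2:**
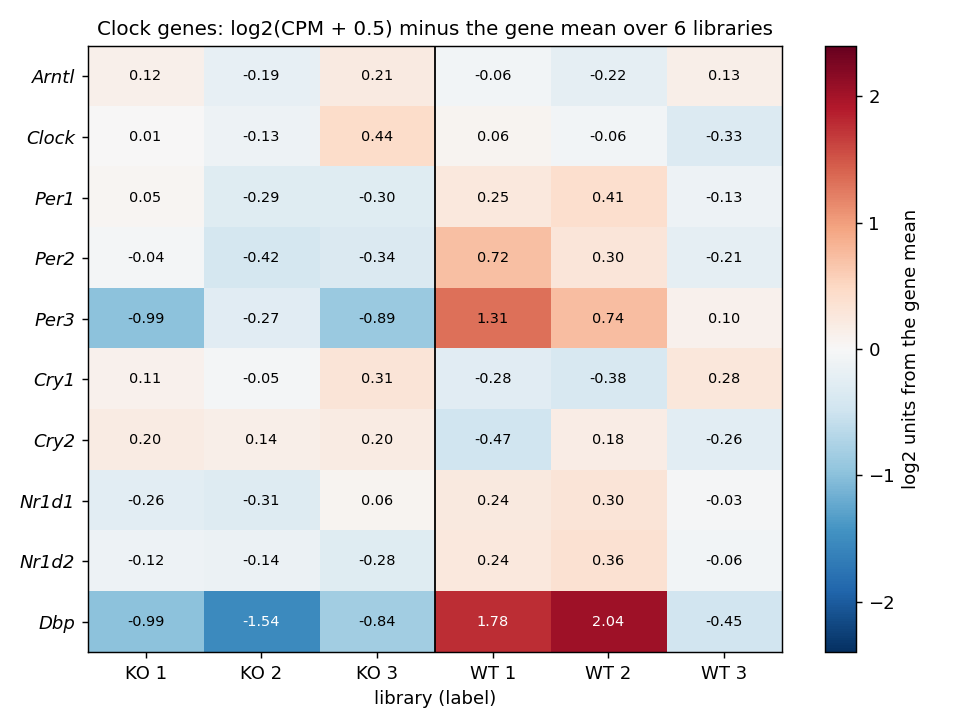
Each clock gene (rows) in each library (columns) as log2(CPM + 0.5) minus the mean of that gene over the 6 libraries, with red above and blue below the mean. The libraries labelled WT 1 and WT 2 are red in all PER, REV-ERB and Dbp rows, reaching 2.04 for Dbp, while in WT 3 the farthest row from the mean is Dbp, at -0.45.

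**Figure D3:**
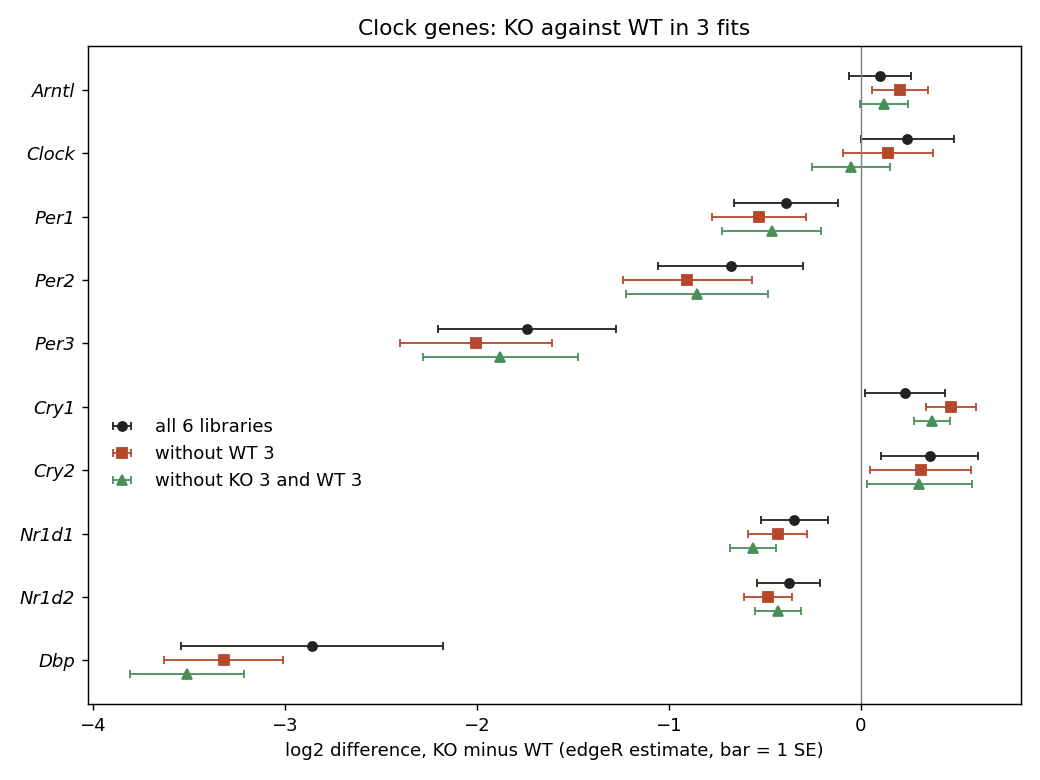
Estimated log2 difference, knockout minus wild type (x axis), of each clock gene (rows), with 1 SE, in edgeR fits to all 6 libraries, without WT 3, and without KO 3 and WT 3. Dbp moves between -2.86 and -3.51 and Per3 between -1.74 and -2.0, while Arntl stays between 0.10 and 0.20.

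Set side by side within a library, all arms of the loop but Arntl and Clock separated by label. As single genes only Per3, Nr1d2 and Dbp did so, a separation seen in 18.5% of all genes in either direction. No such share was computed for means of several genes. The mean log2(CPM + 0.5) of Per1, Per2 and Per3 was 1.76, 1.76 and 1.57 in KO 1, KO 2 and KO 3, against 2.84, 2.56 and 2.00 in WT 1, WT 2 and WT 3. That of Nr1d1, Nr1d2 and Dbp was 3.69, 3.48 and 3.79 under the knockout label and 4.90, 5.04 and 3.96 under the wild-type label. In both arms WT 3 lay just above the libraries labelled knockout and WT 1 and WT 2 well above. The Cry1 and Cry2 mean ran the other way and did not overlap either, at 4.98, 4.87 and 5.08 in KO 1, KO 2 and KO 3, against 4.45, 4.72 and 4.83 in WT 1, WT 2 and WT 3. In that mean KO 2 and WT 3 lay close, and each CRY gene on its own overlapped between the labels. Arntl and Clock overlapped between the labels (4.89 ± 0.24 under the knockout label against 4.73 ± 0.07 under the wild-type label, SD, n = 3 each). Arntl was also set against the mean of Nr1d1, Nr1d2, Per1, Per2, Per3 and Dbp in the same library, a score that carries no p. The 6 genes of that mean are those with lower estimates under the knockout label, while the log2 difference of Arntl itself was only 0.10. The score therefore mostly restates their lower values, and clock phase was not tested. Arntl stood above that mean by 3.43, 3.22 and 3.56 log2 units in KO 1, KO 2 and KO 3, against 2.10, 2.01 and 3.18 in WT 1, WT 2 and WT 3. Leaving Dbp out of the mean gave 3.15, 2.85 and 3.32 under the knockout label and 2.14, 2.11 and 2.95 under the wild-type label. In the second form WT 3 lay above KO 2.

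**Figure D4:**
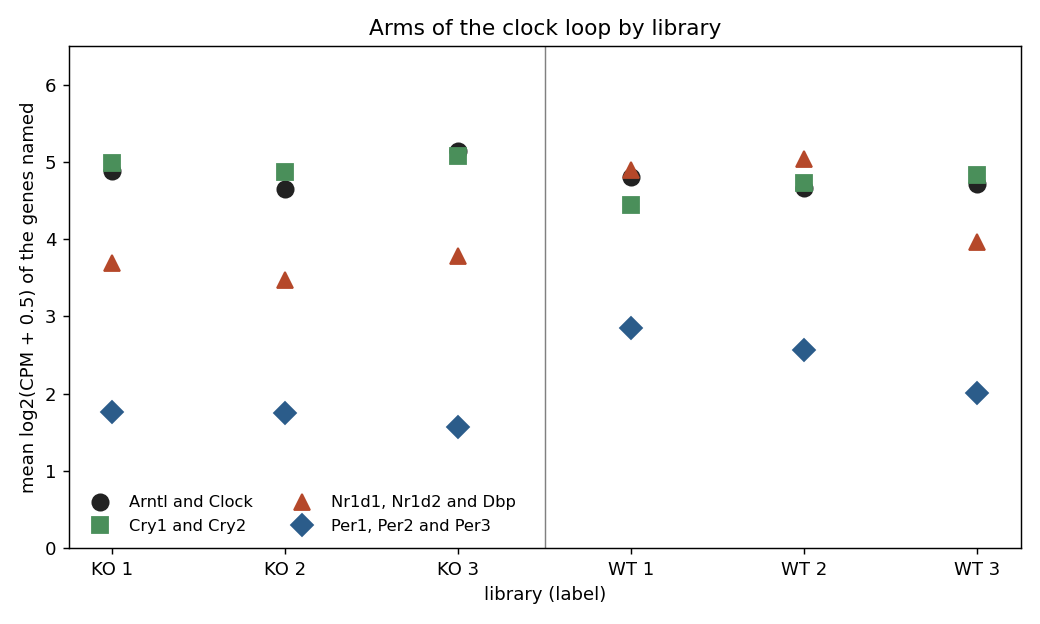
Mean log2(CPM + 0.5) of the genes of each arm of the clock loop (y axis) in each library (x axis, libraries labelled knockout left of the line). The Nr1d1, Nr1d2 and Dbp mean is 3.48 to 3.79 in the libraries labelled knockout, against 4.90, 5.04 and 3.96 in WT 1, WT 2 and WT 3.

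Among themselves, the clock genes spanned a wide range of abundance. As CPM per kb of annotated exon, Cry1 was highest, at 29.4 ± 3.75 under the knockout label and 25.1 ± 6.53 under the wild-type label (SD, n = 3 each), and its range over the 6 libraries overlapped no other clock gene. Nr1d1 (9.57 ± 1.41 against 12.2 ± 1.44), Arntl (8.97 ± 1.29 against 8.36 ± 1.04) and Nr1d2 (5.37 ± 0.332 against 6.96 ± 1.04) followed, with neighbours overlapping. Below them came Dbp (0.601 ± 0.182 against 4.36 ± 2.93), Cry2 (1.52 ± 0.0371 against 1.18 ± 0.301), Per1 (0.995 ± 0.156 against 1.30 ± 0.254), Clock (0.923 ± 0.206 against 0.780 ± 0.111), Per2 (0.380 ± 0.0664 against 0.608 ± 0.216) and Per3 (0.169 ± 0.0631 against 0.565 ± 0.252). Each of these overlapped the next in the order of means. Dbp thus stood between Nr1d2 and Cry2 over all libraries, but its mean was below those of Cry2, Per1 and Clock under the knockout label and above all 3 under the wild-type label.

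The wider clock list held 31 other genes, of which 29 were in the table used here and 28 were tested with all 6 libraries (Arntl2 and Rorb were not used here). With all 6 libraries 0 of 28 passed by edgeR. At an unadjusted p under 0.05 there were 3, against 14.4% of all genes, and DESeq2 passed 0, against 2.3% of all genes. The median log2 difference was 0.07. Without WT 3, 5 of 29 rose and 5 fell, near the 33.9% of all genes that passed in that fit. Without both libraries numbered 3, 8 of 29 rose and 7 fell, against 22.7% of all genes each way and 45.4% in all. Npas2, a paralog of Clock that can stand in for it, had the lowest p of the list. It was at 14.0, 10.8 and 15.4 CPM in KO 1, KO 2 and KO 3, against 54.7, 49.8 and 11.3 CPM in WT 1, WT 2 and WT 3. Here WT 3 lay inside the knockout range. In the fit to all 6 libraries Npas2 had an estimate of -1.53 (SE 0.54) that did not pass (adjusted p = 0.342), and it fell by 1.96 without WT 3 (SE 0.18, adjusted p = 0.000313).

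The relatives of Dbp differed much less than Dbp. Tef, a second PAR bZIP factor, was at 25.0, 25.4 and 22.6 CPM under the knockout label and at 39.4, 34.4 and 22.5 CPM in those labelled wild type, and fell by 0.59 without WT 3 (SE 0.14, adjusted p = 0.0147). Hlf, the third of the family, was at 148 to 158 CPM under the knockout label and at 171 to 187 CPM in those labelled wild type, without overlap. Hlf fell by 0.27 without WT 3 (SE 0.08, adjusted p = 0.0467), and neither passed with all 6 libraries (adjusted p = 0.383 for Tef and 0.360 for Hlf). Per length, Tef stood 3.84-fold to 8.11-fold above Dbp in the libraries labelled knockout, against 0.918, 0.664 and 2.77 times Dbp in WT 1, WT 2 and WT 3. Nfil3, a bZIP repressor of the same D-boxes that is also needed for innate lymphoid cell development, was at 67.5, 71.6 and 108 CPM under the knockout label and at 49.6, 47.1 and 68.2 CPM in those labelled wild type. WT 3 overlapped KO 1. Nfil3 had a log2 difference of 0.58 (SE 0.24, adjusted p = 0.342) and rose by 0.78 without WT 3 (SE 0.21, adjusted p = 0.0276).

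Bhlhe40, a repressor that competes for E-boxes, was at 274, 315 and 373 CPM in KO 1, KO 2 and KO 3, against 437, 433 and 285 CPM in WT 1, WT 2 and WT 3, and fell by 0.43 without WT 3 (SE 0.13, adjusted p = 0.0396). Rora, the ROR activator of Arntl that ILC2s also need for their development, was at 288 to 359 CPM under the knockout label against 439, 448 and 304 CPM, and fell by 0.45 in the same fit (SE 0.11, adjusted p = 0.0168). With all 6 libraries neither passed (adjusted p = 0.515 and 0.424). Csnk1d, the kinase that marks PER proteins for degradation, was at 250 to 258 CPM under the knockout label and at 225 to 246 CPM in those labelled wild type. Csnk1d did not pass with all 6 libraries (adjusted p = 0.580) or without WT 3 alone (adjusted p = 0.137). Fbxl21, an F-box protein that acts on CRY, was at 4.64 to 7.91 CPM under the knockout label against 0.916 to 4.54 CPM, and rose by 1.78 without WT 3 (SE 0.54, adjusted p = 0.0412). Wee1, a cell cycle kinase with E-boxes in its promoter, was at 24.0 to 39.1 CPM against 46.9 to 52.7 CPM, and Cipc, a CLOCK inhibitor, at 26.0 to 33.0 CPM against 22.3 to 26.8 CPM. Wee1 did not pass with all 6 libraries (adjusted p = 0.342) or without WT 3 alone (adjusted p = 0.0892), nor did Cipc (adjusted p = 0.359 and 0.215). Without both libraries numbered 3, 45.4% of all genes passed. In that fit Csnk1d rose by 0.19 (SE 0.07, adjusted p = 0.0451) and Wee1 fell by 0.36 (SE 0.11, adjusted p = 0.0265). Cipc did not pass there (adjusted p = 0.270). The other genes that rose without WT 3 were Noct, Wdr5 and Csnk2a1, named after their values were seen. Noct, which encodes the rhythmic protein nocturnin, was at 26.1 to 31.1 CPM under the knockout label and at 12.3, 13.2 and 32.5 CPM in WT 1, WT 2 and WT 3.

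**Figure D5:**
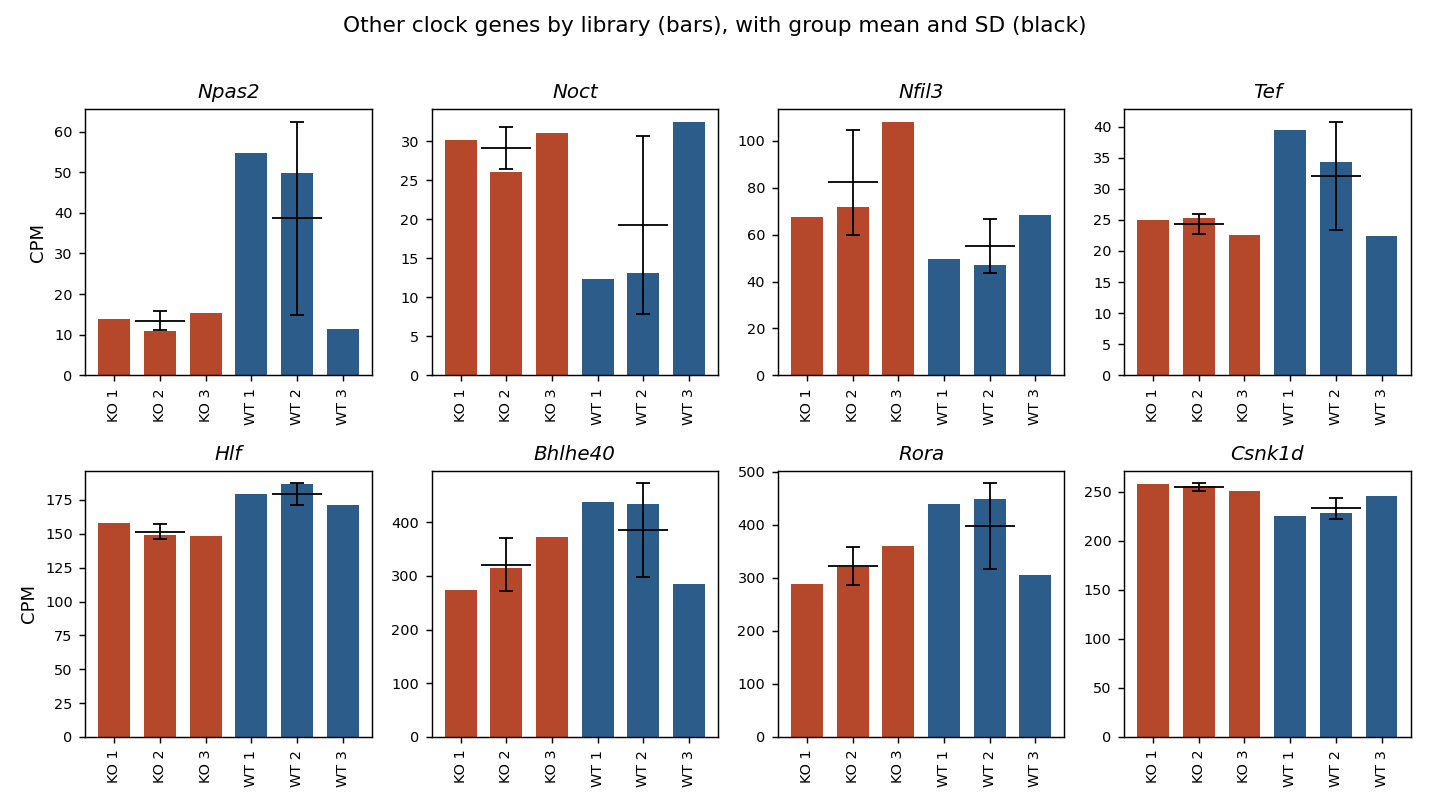
Level in CPM (y axis, from 0) of 8 other clock genes in each library (x axis), drawn as for the members, with group mean and SD in black (n = 3 each). Npas2 is at 10.8 to 15.4 CPM in the libraries labelled knockout and in WT 3 at 11.3 CPM, against 54.7 and 49.8 CPM in WT 1 and WT 2.

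Glucocorticoids, which reset peripheral clocks and induce Per1, were followed through a list of 8 genes, among them the receptor gene Nr3c1 and Per1 itself, of which 7 were tested. With all 6 libraries 0 of 7 passed by edgeR, as 0 did by DESeq2. At an unadjusted p under 0.05 there was 1, against 14.4% of all genes. Without WT 3, 2 of 7 fell, Sgk1 and Dusp1 (named after their values were seen), and 0 rose, where 16.1% of all genes fell and 17.7% rose. Tsc22d3, which encodes the glucocorticoid-induced leucine zipper, was at 62.8, 57.8 and 119 CPM in KO 1, KO 2 and KO 3, against 45.4, 54.3 and 51.4 CPM in WT 1, WT 2 and WT 3, with KO 3 alone far above the rest. Its log2 difference of 0.66 (SE 0.29, adjusted p = 0.346) did not pass, nor did it without WT 3 (adjusted p = 0.137). Fkbp5, a co-chaperone of the glucocorticoid receptor, was at 158 to 182 CPM under the knockout label and 168 to 191 CPM in those labelled wild type (log2 difference -0.07, SE 0.13, adjusted p = 0.790, and -0.11 without WT 3, SE 0.10, adjusted p = 0.450).

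The tested genes whose pattern over the 6 libraries lay nearest were found by the root mean square difference of mean-centred log2(CPM + 0.5). Genes with only a provisional symbol, such as Gm or Rik names, were left out of this search. For Arntl these were Ttc37 (0.0374 log2 units), Ap3m1-ps (0.0374, at only 1.25 to 1.98 CPM) and Eif4g3 (0.0462). For Per1 they were Akap7 (0.0392), Rasa1 (0.0409) and Zdhhc2 (0.0477). Dbp had no neighbour as close, but this distance is not scaled to the range of a gene. The log2 range was 3.58 for Dbp and 0.43 for Arntl, so these distances do not compare how unusual the patterns are. The nearest to Dbp were Pimreg (0.212), at 8.15 to 10.4 CPM under the knockout label and 66.9, 70.9 and 15.0 CPM in WT 1, WT 2 and WT 3, then Cst6 (0.219) and Pak6 (0.222). Under the knockout label Pak6 was at only 0.535 to 1.60 CPM and Cst6 at 0.119 to 0.173 CPM. These Cst6 levels lie below the 0.5 CPM added before the log, which narrows its range. The edgeR log2 difference of Cst6 was -4.36, against -2.86 for Dbp.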

How the data were processed

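RNA was measured in sorted lung ILC2s, in 3 libraries labelled Atg5-/- and 3 labelled wild-type. Groups and replicate numbers come from the sample titles, and columns were matched by sample description. The authors deposited estimated counts per gene, not all whole, and a second table of normalized signal for 16322 genes. Adding 1 to an estimated count and dividing by a constant of its library gave the deposited signal. CASAVA 1.8.2, STAR, Partek and mm10 are named in the submitters' processing notes, with no role or order. The sources do not give how shared reads were divided or whether strand was used.

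Estimated counts were rounded and tested with edgeR 4.0.16 in R 4.3.3 (TMM, filterByExpr, robust glmQLFit, glmQLFTest, Benjamini-Hochberg over all genes, threshold 0.05), knockout against wild type with no covariate. The SE is the size of the log2 difference over the root of F. CPM use TMM-adjusted library sizes. Library totals were 28827545 to 33662979, so that 3 counts are 0.0891 to 0.104 CPM. Counting intervals (95%) cover counting error only, since reads carry no molecular identifiers. P-values measure the spread between these libraries, which may be technical. The edgeR step was tested on simulated counts in which no library departed from its label, so that test does not cover a library like WT 3. Exons and spans are from GENCODE vM21, where all 10 spans matched the deposited ones after 1 base was taken off the end.

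The clock genes, the lists of other clock genes and of cell markers, and the alternatives were chosen with earlier results of these data known. Other clock genes named are those with the 8 lowest p with all 6 libraries plus Bhlhe40, Nfil3, Rora, Tef and Csnk1d. From the glucocorticoid list Tsc22d3 and Fkbp5 were fixed. Alternatives were DESeq2 1.42.0, limma 3.58.1 (voom, and trend on log2 of the signal plus 1), 3 other scalings, 2 other low-count filters, non-robust dispersion, a threshold of 0.10, a block for the replicate number, leaving out each library in turn, and leaving out both libraries numbered 3.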

Additional observations from a re-analysis of the deposited data

How the results depend on the processing

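With all 6 libraries, the counts of 0 clock genes, 0 other clock genes and 0 genes in all held under DESeq2 size factors, upper-quartile scaling, library totals, limma-voom, limma-trend, non-robust dispersion a threshold of 0.10, and either other low-count filter (none, or at least 2 CPM in 3 libraries). DESeq2 passed 323 genes, 2 of them clock genes (Dbp and Per3). Leaving out 1 library gave 0 to 4991 genes, 0 to 4 clock genes and 0 to 10 other clock genes, and only the fit without WT 3 gave any. Without both libraries numbered 3 the counts were 6505, 5 and 15. Why the counts move so much with WT 3 was not tested beyond the values given for that library. Of 170 estimates of a clock gene under an alternative, 158 kept direction and side of the threshold, 11 passed it, and 1 changed sign, the log2 difference of Clock, which was -0.0511 without both libraries numbered 3. Arntl against the mean of the 6 driven genes, higher by 0.97 under the knockout label, ranged from 0.76 to 1.35 when 1 library was left out. This difference was 1.06 with a pseudocount of 0.1 CPM, 0.97 with library totals and 0.70 without Dbp in the mean. The log2 difference of Arntl itself was only 0.10. Leaving libraries out of this score was added after the data were seen. Same-numbered libraries did not deviate together from their group means (correlations across genes of -0.04, 0.02 and -0.01). Because WT 3 differed so much from WT 1 and WT 2, these correlations cannot decide whether the numbers pair the libraries. With the replicate number as a block 0 genes passed, 0 of them clock genes and 0 other clock genes, and the estimates of Dbp and Per3 were -2.57 and -1.69. Depth limits Per2, Per3 and Dbp most, with as few as 65, 35 and 40 counts in a library.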
